A study of Homo sapiens with 23 samples.

Results

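The MYC and MAX network is a set of transcription factors that compete for a shared partner and for the same DNA element. Its 10 members here were chosen by gene symbol in the deposited count table: MYC, MAX, MXD1, MXD3, MXD4, MXI1, MNT, MLX, MLXIP and MGA, 10 of 28395 genes. All 10 passed the filter on low counts, as did 16468 genes in all. The lowest count of a member in a library was 47 and the highest 29274.

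RNA was sequenced from H929, MM1S, OPM2 and RPMI-8226, established human lines of multiple myeloma, a cancer of plasma cells. In each line, cells expressing a guide RNA against IRF4 (Irf4 sgRNA in the labels) were set against cells with a guide labelled EV, a name that no source used here explains. Cas9 is named in the deposited RPKM headers of every library, with either guide. Both guides were induced with doxycycline for 48 hours, so the EV cells received the drug as well. There were 3 libraries per line and guide, except 2 for MM1S EV (replicates 2 and 3), which makes 23 libraries. As 1 IRF4 guide and time point were used, early, late and off-target consequences of the guide cannot be told apart. Whether replicates came from separate cultures is not stated in the labels, and p-values then measure only how far these libraries spread, which may be technical.

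MYC binds DNA as a pair with MAX at the E-box, the sequence CACGTG, and activates genes of growth, nucleotide synthesis and ribosome assembly. MXD1, MXD3, MXD4, MXI1 (also called MXD2) and MNT pair with the same MAX but recruit SIN3 and histone deacetylases, and so repress E-box genes. MGA joins MAX to a Polycomb complex, and MLX with its partner MLXIP (MondoA) forms a parallel branch that responds to glucose. In normal plasma cell differentiation MYC is switched off, whereas in myeloma it is often active through rearrangement of its locus. IRF4 and MYC are known from work on myeloma to support each other's expression.

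Levels are counts scaled to a common library total (CPM) with trimmed mean of M-values factors (TMM), and compare libraries for 1 gene. Comparisons between genes use the deposited RPKM values, which account for gene length. Guide effects are on the log2 scale, IRF4 guide over EV guide, ± standard error (SE) from edgeR's quasi-likelihood test, with Benjamini-Hochberg adjustment over all genes tested. Calls are values with an adjusted p under 0.05. The median log2 fold change of all genes was 0.10 in H929 and 0.03 in OPM2 on TMM-scaled counts, against -0.07 and -0.08 on the deposited RPKM scale, so member changes of that size depend on the scaling.

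Library totals ran from 6907390 to 28486960 counts. IRF4 transcripts were lower with the IRF4 guide in each line, at 1039 against 1640 CPM in OPM2, 736 against 2199 in H929, 210 against 451 in RPMI-8226 and 265 against 683 in MM1S, and the ranges overlapped in OPM2. IRF4 protein was not measured, so these values do not give the extent of its loss. Plasma cell markers summed to 16709.9 to 16939 CPM in H929 IRF4 libraries and 3579.9 to 3912 CPM in RPMI-8226 EV libraries, the highest and lowest groups, and CD27 alone was at 0 counts in a group, MM1S EV. Markers of T and NK cells summed to 117 to 132 CPM in H929 IRF4 libraries, against 13.1 to 14.7 in H929 EV libraries, where CD3D, KLRD1 and CD8A of the 8 genes were at 0. Myeloid markers summed to 32 to 34.6 CPM in H929 IRF4 libraries, against 0.292 to 0.358 in H929 EV libraries, with CD14, FCGR3A and MPO of 8 at 0 under the IRF4 guide. In the other lines the sums were smaller but also higher with the IRF4 guide than with EV. T and NK cell markers summed to 11.4 to 15.6 CPM against 5.66 to 6.41 with EV in MM1S, 2.71 to 3.99 against 0 to 0.291 in OPM2 and 7.73 to 9.12 against 3.34 to 5.22 in RPMI-8226. Myeloid markers summed to 9.12 to 14.8 CPM against 1.6 to 2.54 with EV in MM1S, 0.798 to 1.65 against 0.117 to 0.175 in OPM2 and 11 to 20.3 against 2.98 to 4.01 in RPMI-8226. CD3D and MPO were at 0 in both groups of MM1S and of OPM2, and in RPMI-8226 with EV. The part of these markers in the results was not tested. Stromal and epithelial markers summed to 194 to 209.9 CPM in RPMI-8226 IRF4 libraries and 229 to 238 in its EV libraries, and to 5.01 at most in the other lines.

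MYC transcripts were lower with the IRF4 guide in H929, OPM2 and RPMI-8226 and higher in MM1S. In H929, MYC had 162, 187 and 187 CPM with the IRF4 guide, against 397, 439 and 427 CPM with EV. In OPM2 it had 189, 245 and 273 CPM with the IRF4 guide, against 411, 531 and 462 CPM with EV. In RPMI-8226 it had 613, 568 and 622 CPM with the IRF4 guide, against 1194, 1145 and 1113 CPM with EV. No IRF4 library of these 3 lines reached the lowest EV library of its line. In MM1S, MYC had 789.7, 788 and 698 CPM with the IRF4 guide, against 586 and 551 CPM with EV, again without overlap but in the other direction.

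The log2 fold change of MYC was -1.24 ± 0.10 in H929 (adjusted p = 1.54e-11), -0.99 ± 0.10 in OPM2 (4.66e-09) and -0.94 ± 0.10 in RPMI-8226 (2.81e-08). In MM1S it was 0.42 ± 0.11 (adjusted p = 0.00418), a call that was lost without EV replicate 3 (0.37, adjusted p = 0.0621), which leaves 1 EV library. The guide effect differed between the 4 lines (F test with 3 degrees of freedom, adjusted p = 2.85e-09), and in MM1S it exceeded the mean of the other lines by 1.47 ± 0.13 (adjusted p = 3.69e-09). The average over the 4 lines was -0.69 ± 0.05. Of the 16468 genes, 31 (0.188%) were called lower in H929, OPM2 and RPMI-8226 and higher in MM1S, MYC included.

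**Figure D1:**
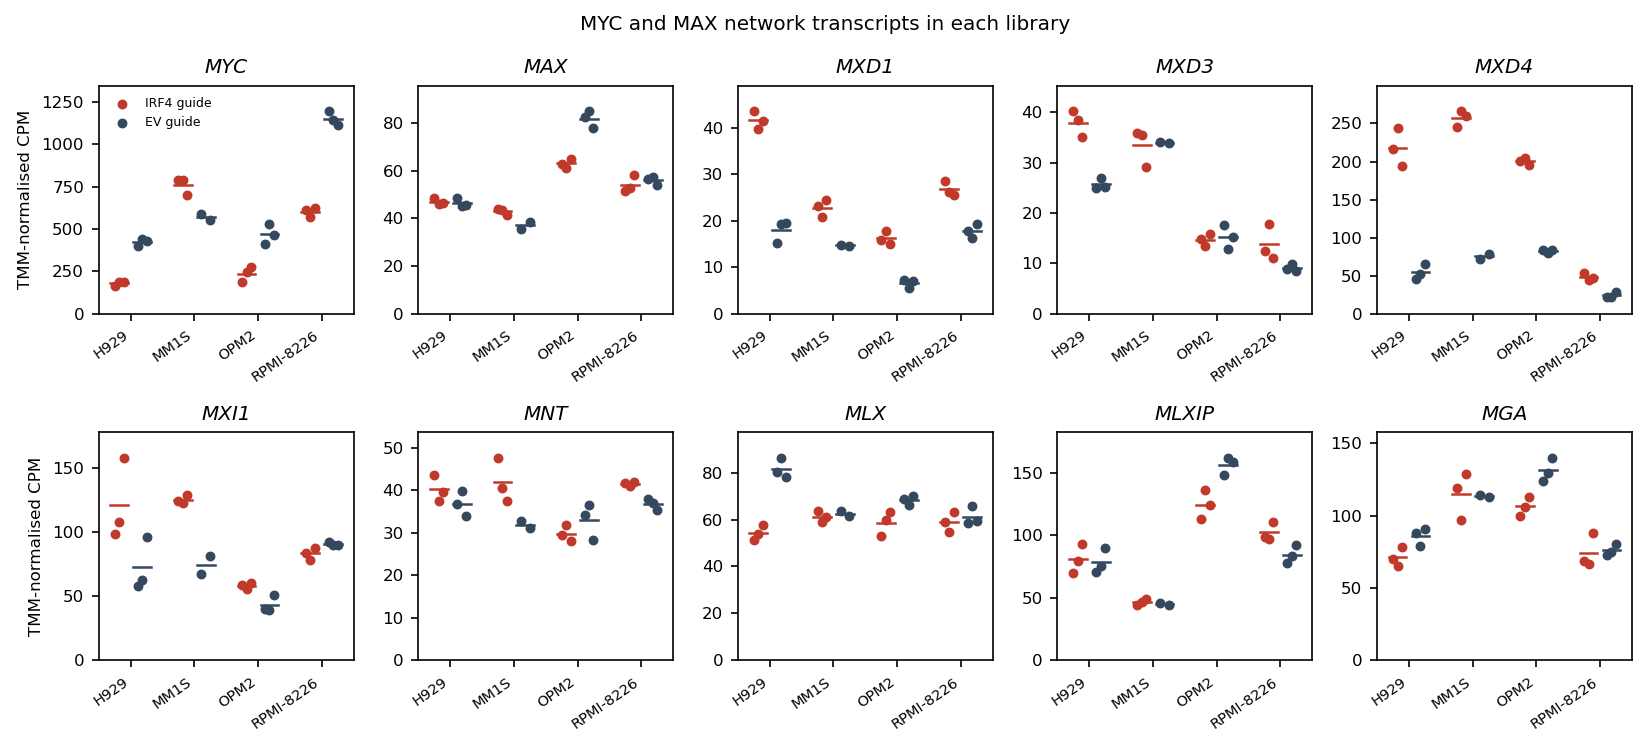
TMM-normalised CPM of each member (y axis from 0) in every library of the 4 lines (x axis), with the IRF4 guide in red left of the EV guide in dark blue and a line at each group mean. MYC sits lower with the IRF4 guide in H929, OPM2 and RPMI-8226 and higher in MM1S, while MXD4 and MXD1 sit higher with the IRF4 guide in each line.

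With the IRF4 guide MYC was highest in MM1S at 758 ± 52.5 CPM, ahead of RPMI-8226 at 601 ± 29, OPM2 at 236 ± 42.7 and H929 at 179 ± 14.4 (SD, n = 3 each). With the EV guide the order of MYC was RPMI-8226 (1151 ± 41 CPM, n = 3), MM1S (569 ± 24.8, n = 2), OPM2 (468 ± 60.1, n = 3) and H929 (421 ± 21.8, n = 3), and the ranges of OPM2 and H929 overlapped.

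The 5 genes whose 4 guide effects lay closest to those of MYC, among 10756 with a mean of at least 5 CPM, were SORD (root mean square difference 0.15 on the log2 scale), VPS9D1-AS1 (0.17; an antisense RNA whose reads may be mixed with those of VPS9D1), SLIRP (0.19), FJX1 (0.25) and EEF2KMT (0.25). Of these, only EEF2KMT was among the 31 genes called lower in H929, OPM2 and RPMI-8226 and higher in MM1S. SORD, the sorbitol dehydrogenase gene, had log2 fold changes of -1.21 in H929, 0.25 in MM1S, -0.82 for OPM2 and -0.75 for RPMI-8226. Its MM1S levels were close, at 8.44 ± 1.14 CPM (n = 3) with the IRF4 guide and 7.03 ± 1.58 (n = 2) with EV. EEF2KMT, which encodes a methyltransferase of elongation factor 2, had -1.44, 0.61, -1.39 and -1.05 in the same order, and its MM1S level was 35.9 ± 2.47 CPM (n = 3) with the IRF4 guide, against 23.4 (n = 2) with EV.

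MYCL and MYCN, the other MYC genes, were each called in 2 lines. MYCL, a paralog that also pairs with MAX, was higher in MM1S, at 38.2 to 49.1 CPM with the IRF4 guide against 15.3 to 18 CPM with EV (1.33 ± 0.20, adjusted p = 3.94e-06). It was called lower in OPM2 (-1.14 ± 0.39, adjusted p = 0.0195), where it averaged 0.397 CPM with the IRF4 guide and 1.07 CPM with EV. At these low levels the ranges overlapped, at 0.291 to 0.467 CPM with the IRF4 guide and 0.352 to 1.9 CPM with EV. MYCN was higher in RPMI-8226, at 22.3 to 32 CPM with the IRF4 guide and 14.6 to 17.5 CPM with EV (0.72 ± 0.16, adjusted p = 9.88e-04). In H929 it was near absent, with 1 count over the IRF4 libraries and 16 over the EV libraries, a ratio of 0.0649 with a 95% counting interval of 0.00155 to 0.418. MLXIPL (ChREBP), the relative of MLXIP best known from liver, had 25 counts over all libraries and was not tested.

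Among the antagonists, MXD4 rose in each line, with the largest log2 fold change of the 10 members in each. In OPM2 this change lay within the SE of that of MXD1. In RPMI-8226 it (1.02 ± 0.11) was close in size to the fall of MYC (-0.94 ± 0.10). In H929, MXD4 had 217, 244 and 194 CPM with the IRF4 guide, against 45.3, 52.5 and 64.9 CPM with EV. In MM1S it had 245, 266 and 259.7 CPM with the IRF4 guide, against 72.2 and 78.1 CPM with EV. In OPM2 it had 201, 205 and 196 CPM with the IRF4 guide, against 83.8, 79.8 and 83.5 CPM with EV. The groups stood apart in each of these lines, with the IRF4 libraries higher. RPMI-8226 had the lowest levels under both guides, at 53.1, 44.8 and 47.2 CPM with the IRF4 guide and 21.9, 22.5 and 28 CPM with EV, also without overlap.

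The rise of MXD4 was 4.01-fold in H929 (2.00 ± 0.10, adjusted p = 6.47e-16), 3.42-fold in MM1S (1.77 ± 0.12, 8.74e-12), 2.43-fold in OPM2 (1.28 ± 0.10, 1.84e-11) and 2.03-fold in RPMI-8226 (1.02 ± 0.11, 2.24e-08). Its size differed between lines (adjusted p = 7.12e-06). MXD4 and MXD1 were the 2 members called higher in all 4 lines, which 846 genes were (5.14% of those tested). No member was called lower in all 4 lines, which 630 genes were (3.83%).

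MXD1 (MAD1), induced in many cell types as they differentiate, rose in each line as well. In H929 it had 43.6, 39.7 and 41.6 CPM with the IRF4 guide, against 15.2, 19.3 and 19.6 CPM with EV. In OPM2 it had 15.8, 17.9 and 15 CPM with the IRF4 guide, against 7.32, 5.57 and 6.96 CPM with EV. The groups stood apart, a rise of 2.34-fold in H929 (1.22 ± 0.11, adjusted p = 1.31e-10) and 2.39-fold in OPM2 (1.26 ± 0.12, 2.24e-09). The rises in MM1S (0.63 ± 0.14, adjusted p = 8.00e-04) and RPMI-8226 (0.60 ± 0.11, 1.15e-04) were smaller, at 22.8 ± 1.86 against 14.7 ± 0.188 CPM (n = 3 and 2) and 26.8 ± 1.53 against 17.8 ± 1.56 CPM (n = 3 each). The effect differed between lines (adjusted p = 9.78e-04).

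MXI1 rose in H929 and MM1S. In MM1S it had 124, 123 and 129 CPM with the IRF4 guide, against 66.9 and 81.2 CPM with EV (0.76 ± 0.20, adjusted p = 0.00473). In H929 it had 98.2, 108 and 158 CPM with the IRF4 guide, against 58.1, 62.8 and 96.2 CPM with EV (0.74 ± 0.17, adjusted p = 7.69e-04). Replicate 3 of H929 was the highest library under each guide, and the groups stood apart by 98.2 against 96.2 CPM at their edges. The H929 call was lost in 1 of 31 alternatives, when that line was fitted alone without pairs (0.68, adjusted p = 0.0976). It was kept with the replicate number as a block within each line, which compares same-numbered libraries. The MM1S call was lost without EV replicate 2 (0.62), which leaves 1 EV library. In OPM2, MXI1 had 58.8, 55.3 and 60.4 CPM with the IRF4 guide, against 40.2, 39.4 and 50.5 CPM with EV. The difference missed the threshold in the main fit, which leaves the pairs out (0.42 ± 0.17, adjusted p = 0.0564). It was called in 13 of 31 alternatives, among them with the replicate number as a block within each line (0.43, adjusted p = 4.15e-06), which in OPM2 pairs the libraries. In RPMI-8226 the value was -0.12 ± 0.17 (adjusted p = 0.623), and the lines differed (adjusted p = 0.0144).

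MXD3, which is expressed in dividing cells, rose in H929 and RPMI-8226. It averaged 37.8 ± 2.65 CPM with the IRF4 guide and 25.7 ± 1.07 CPM with EV in H929 (0.57 ± 0.13, adjusted p = 4.67e-04). In RPMI-8226 it averaged 13.8 ± 3.58 CPM with the IRF4 guide and 9.05 ± 0.755 CPM with EV (0.60 ± 0.14, adjusted p = 0.00172; n = 3 each). The values in MM1S (-0.01 ± 0.15) and OPM2 (-0.08 ± 0.14) were not called and their ranges overlapped. Exons of PRELID1 on the opposite strand cover 22.468% of MXD3's exon bases in GENCODE. PRELID1 reads may be mixed with those of MXD3, as no source used here states whether counting used strand. RAB24 lies on the same strand as MXD3, and its exons cover 17.967% of those bases. RAB24 reads may be mixed with those of MXD3 even if counting used strand.

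MNT, the antagonist present in both resting and growing cells, was the member whose EV levels were not called different between lines (28.3 to 39.8 CPM, adjusted p = 0.160). It was called higher in MM1S, with 47.7, 40.6 and 37.4 CPM under the IRF4 guide against 32.8 and 31.1 CPM under EV (0.40 ± 0.12, adjusted p = 0.00808). That call was lost without IRF4 replicate 1 (0.29, adjusted p = 0.0815) or EV replicate 3 (0.37, adjusted p = 0.0831). Values in the other lines were 0.14 ± 0.10 in H929, -0.14 ± 0.10 in OPM2 and 0.17 ± 0.10 in RPMI-8226, none of them called. Exons of the antisense gene AC006435.1 on the opposite strand cover 12.202% of MNT's exon bases. Its reads may be mixed with those of MNT unless counting used strand.

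**Figure D2:**
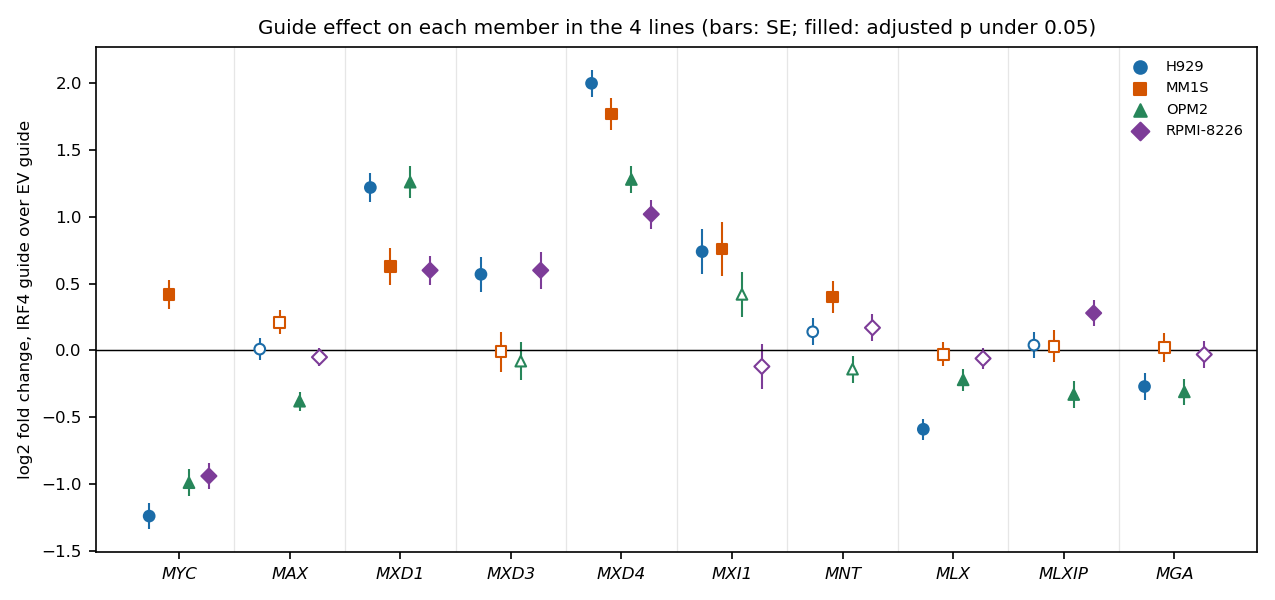
Log2 fold change, IRF4 guide over EV guide (y axis), for each member (x axis) in H929, MM1S, OPM2 and RPMI-8226, with SE bars and filled symbols where the adjusted p was under 0.05. MXD4 and MXD1 lie above 0 in each line, and MYC lies at -1.24, 0.42, -0.99 and -0.94 in the order of the legend.

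On the deposited RPKM scale the 5 antagonists together were higher with the IRF4 guide in each line, without overlap. Their sum was 97.8 ± 4.29 RPKM with the IRF4 guide and 45.9 ± 6.55 with EV in H929 (SD, n = 3 each). For MM1S it was 101 ± 2.43 RPKM with the IRF4 guide (n = 3) and 50.9 ± 2.55 with EV (n = 2). OPM2 had 65.5 ± 0.96 RPKM with the IRF4 guide and 38.5 ± 1.6 with EV, and RPMI-8226 had 45.9 ± 1.12 and 40 ± 0.959 (n = 3 each), the smallest gap. MXD4 and MXI1 made up most of it. MXD4 held 39.2% of the sum with the IRF4 guide and 20.2% with EV in H929. For MM1S these shares were 46.0% and 25.3%, for OPM2 55.7% and 37.1%, and for RPMI-8226 18.1% and 10.5%. RPMI-8226 kept MXI1 as its leading antagonist, with 47.0% under the IRF4 guide and 57.9% under EV.

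MYC relative to the summed antagonists was lower with the IRF4 guide in each line. In H929 the ratio ran from 0.748 to 0.817 with the IRF4 guide and from 3.13 to 3.81 with EV. In OPM2 it ran from 1.27 to 1.88 against 4.20 to 5.81, and in RPMI-8226 from 5.56 to 6.20 against 11.5 to 12.3. H929 with the IRF4 guide was the group in which MYC fell below its antagonists. In MM1S, where MYC itself was higher, the ratio was 3.08 to 3.35 with the IRF4 guide and 4.74 to 5.56 with EV, so it too stood lower with the IRF4 guide. The ratio with the IRF4 guide was 0.219 of that with EV in H929, 0.329 in OPM2, 0.492 in RPMI-8226 and 0.633 in MM1S. These are transcripts, and protein amounts were not measured.

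**Figure D3:**
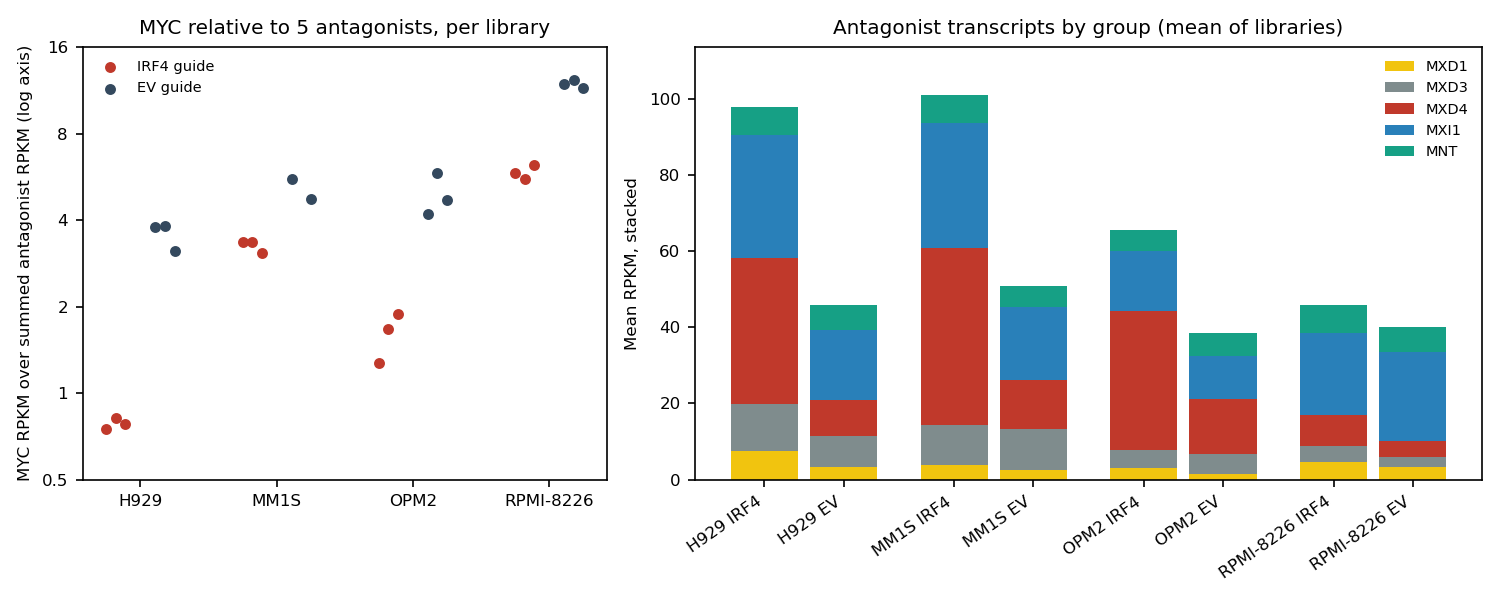
Left, MYC RPKM over the summed RPKM of MXD1, MXD3, MXD4, MXI1 and MNT in each library (log axis), with the IRF4 guide in red and EV in dark blue. Right, mean RPKM of the 5 antagonists stacked by group: the sum is 97.8 with the IRF4 guide against 45.9 with EV in H929, and 45.9 against 40 in RPMI-8226.

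MAX, the shared partner, was called in 1 line in the main fit. It had 62.9, 61.3 and 64.9 CPM with the IRF4 guide in OPM2, against 82.5, 84.9 and 78.1 CPM with EV, without overlap (-0.38 ± 0.07, adjusted p = 1.07e-04). The log2 fold change was 0.01 ± 0.08 in H929, 0.21 ± 0.09 in MM1S (adjusted p = 0.0725) and -0.05 ± 0.07 in RPMI-8226. The MM1S ranges stood apart, at 41.2 to 44.1 CPM with the IRF4 guide and 35.7 to 38.6 CPM with EV. MAX was called higher there in 1 of 31 alternatives, limma on log2 RPKM (0.20, adjusted p = 0.0181). MAX differed between lines (adjusted p = 7.46e-04), and in MM1S its effect exceeded the mean of the others by 0.35 ± 0.10 (adjusted p = 0.0130), a call lost without EV replicate 2 of MM1S (0.29, adjusted p = 0.146) and with no filter on low counts (0.33, 0.0936). With EV, MAX was highest in OPM2 (81.9 ± 3.43 CPM), then RPMI-8226 (55.9 ± 1.83), H929 (46.6 ± 1.86) and MM1S (37.1 ± 2.07), with no overlap between neighbours. MYC exceeded MAX on the RPKM scale in every group, by 5.15 times with the IRF4 guide against 11.4 times with EV in H929, by 5.21 against 7.47 times in OPM2 and by 16.3 against 27.8 times in RPMI-8226. In MM1S it did so by 25.3 times with the IRF4 guide and 23.1 times with EV, the one line without a lower mean.

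In the MLX branch, MLX fell in H929, with 51.4, 53.9 and 57.5 CPM under the IRF4 guide against 80.2, 86.4 and 78.4 CPM under EV (-0.59 ± 0.08, adjusted p = 3.58e-07). In OPM2 it was called at -0.22 ± 0.08 (adjusted p = 0.0249), which was lost in 6 of 31 alternatives, among them without IRF4 replicate 1 (-0.15, adjusted p = 0.173), with upper-quartile scaling (-0.16, 0.0915) and in limma (-0.16, 0.0841). The values in MM1S (-0.03 ± 0.09) and RPMI-8226 (-0.06 ± 0.08) were not called. Exons of PSMC3IP on the opposite strand cover 18.079% of MLX's exon bases. MLXIP moved in opposite directions in OPM2 and RPMI-8226. It averaged 125 ± 11.5 CPM with the IRF4 guide and 156 ± 7.46 CPM with EV in OPM2 (-0.33 ± 0.10, adjusted p = 0.00653), a call lost without IRF4 replicate 1 (-0.26, adjusted p = 0.0546) and in limma on log2 RPKM (-0.21, 0.126). It averaged 102 ± 7.40 CPM with the IRF4 guide and 84.5 ± 7.38 CPM with EV in RPMI-8226 (0.28 ± 0.10, adjusted p = 0.0273), a call lost without IRF4 replicate 3 (0.20, 0.178) and without EV replicate 1 (0.22, 0.143) or 2 (0.27, 0.0791), in DESeq2 (0.26, 0.056) and in limma (0.28, 0.0515).

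MGA fell in H929 (-0.27 ± 0.10, adjusted p = 0.0213) and OPM2 (-0.31 ± 0.10, adjusted p = 0.0107). It averaged 71.2 ± 6.76 CPM with the IRF4 guide and 86.0 ± 6.10 CPM with EV in H929, and 106 ± 6.37 against 131 ± 7.87 CPM in OPM2 (n = 3 each). The H929 call was lost without IRF4 replicate 2 (-0.22, adjusted p = 0.100), EV replicate 1 (-0.25, 0.0631) or EV replicate 3 (-0.26, 0.0526), with upper-quartile scaling (-0.20, 0.0798) and in limma on log2 RPKM (-0.21, 0.104). The OPM2 call was lost without IRF4 replicate 1 (-0.27, adjusted p = 0.0576) or EV replicate 3 (-0.26, 0.0600) and in limma (-0.20, 0.156). For MGA the difference of the guide effect between lines missed the threshold (adjusted p = 0.126), but it was called in 3 of 30 alternatives, among them without MM1S IRF4 replicate 2 (adjusted p = 0.0378).

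Counted over the 10 members, 4 were called higher in H929 (MXD1, MXD3, MXD4, MXI1) and 3 lower (MYC, MLX, MGA), where 32.9% and 26.1% of all genes tested were. In MM1S 5 were higher (MYC, MXD1, MXD4, MXI1, MNT) and 0 lower, beside 19.4% and 15.2% of all genes. In OPM2 2 were higher (MXD1, MXD4) and 5 lower (MYC, MAX, MLX, MLXIP, MGA), beside 23.3% and 20.2%. With the block within each line, which pairs the OPM2 libraries, MXI1 was called higher there as well. In RPMI-8226 4 were higher (MXD1, MXD3, MXD4, MLXIP) and 1 lower (MYC), beside 19.2% and 14.7%. On the average of the lines 5 were higher and 3 lower, beside 32.6% and 25.1%. The counts in H929, those higher in OPM2, those lower in RPMI-8226 and those lower on the average are near these shares. None of the counts carries a test, and nothing is read from them about the network. The count of members lower in MM1S was 0 in edgeR also at an unadjusted p under 0.05, and 0 in DESeq2 and in limma on the deposited values. The effect differed between lines for 9 of 10 members, beside 48% of all genes, and in MM1S against the other lines for 2 of 10, beside 20.1%. Levels with EV differed between lines for 9 of 10, beside 93.1%. The counts for MM1S against the other lines and for EV levels are near their shares.

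The 3 members with an E-box in the RefSeq promoter are shown next, because CACGTG is the element that MYC and its antagonists themselves bind. Promoters here are windows of 300 bases, 250 before and 50 after the gene start, on GRCh38.p14, and 9 members, all but MYC, matched the table with 14 windows. CACGTG, which reads the same on both strands, was found in 3 of the 14, beside 7.26% of 35116 promoters of that length. The IRF repeat GAAANNGAAA, searched on both strands, was found in 0 of the 14, beside 3.57%. In the stretches below, written 5′ to 3′ on the strand of the gene, capitals mark CACGTG, which starts 238 bases before the MXD4 start, 193 before that of MNT and 50 before that of MLX. They lie at chr4:2262322-2262359 (minus strand), chr17:2401228-2401273 (minus) and chr17:42567030-42567075 (plus).
MXD4: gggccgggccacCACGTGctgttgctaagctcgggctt
MNT: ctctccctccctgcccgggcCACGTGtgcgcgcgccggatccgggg
MLX: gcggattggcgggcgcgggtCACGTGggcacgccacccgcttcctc

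MXD4 and MXD1, the members called higher in each line, differ in this respect: the MXD1 window holds no CACGTG. A match is a string of letters, not a bound site, and these data do not measure binding. The 250 bases before the gene start are given for both for comparison, at chr4:2262110-2262359 (minus strand) for MXD4 and chr2:69914859-69915108 (plus strand) for MXD1, with capitals again marking CACGTG.
MXD4: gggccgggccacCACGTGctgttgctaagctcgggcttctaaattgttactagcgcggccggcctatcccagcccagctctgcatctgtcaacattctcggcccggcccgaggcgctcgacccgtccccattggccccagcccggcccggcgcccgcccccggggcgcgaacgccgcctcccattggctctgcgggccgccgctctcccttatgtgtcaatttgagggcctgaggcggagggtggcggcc
MXD1: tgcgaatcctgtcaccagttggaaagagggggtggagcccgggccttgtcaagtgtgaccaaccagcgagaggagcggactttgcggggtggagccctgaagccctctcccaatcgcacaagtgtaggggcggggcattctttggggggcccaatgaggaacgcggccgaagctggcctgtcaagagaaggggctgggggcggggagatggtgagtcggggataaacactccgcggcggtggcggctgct

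Most genes that MYC is known to activate were called lower in H929, OPM2 and RPMI-8226, and 16 of 29 in MM1S. Of 30 listed genes 29 were tested (EIF4A1, a housekeeping translation factor, was listed at 0 in every library). With the IRF4 guide 29 were lower in H929 (26.1% of all genes were), 28 in OPM2 (20.2%), 27 in RPMI-8226 (14.7%) and 16 in MM1S (15.2%), and 0 were higher in any line, in edgeR also at an unadjusted p under 0.05 and in DESeq2. The list's median log2 fold change was -1.10 in H929 (0.10 for all genes tested), -0.70 in OPM2 (0.03), -0.49 in RPMI-8226 (0.04) and -0.38 in MM1S (0.07). PAICS, an enzyme of purine synthesis, averaged 169.9 CPM with the IRF4 guide and 531 with EV in H929 (-1.64 ± 0.09), and 290.4 against 494 in MM1S (-0.76 ± 0.09). PPAT, which starts the same pathway, fell by 1.36 in H929 and by 0.58 in MM1S on the log2 scale. CDK4, a kinase of the G1 phase, had -1.13 ± 0.08 in H929 and -0.47 ± 0.09 in MM1S, and PHB, which encodes prohibitin, had -1.10 ± 0.08 and -0.40 ± 0.09. All 4 genes were called lower in each line. In MM1S these falls stood beside higher MYC transcripts.

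**Figure D4:**
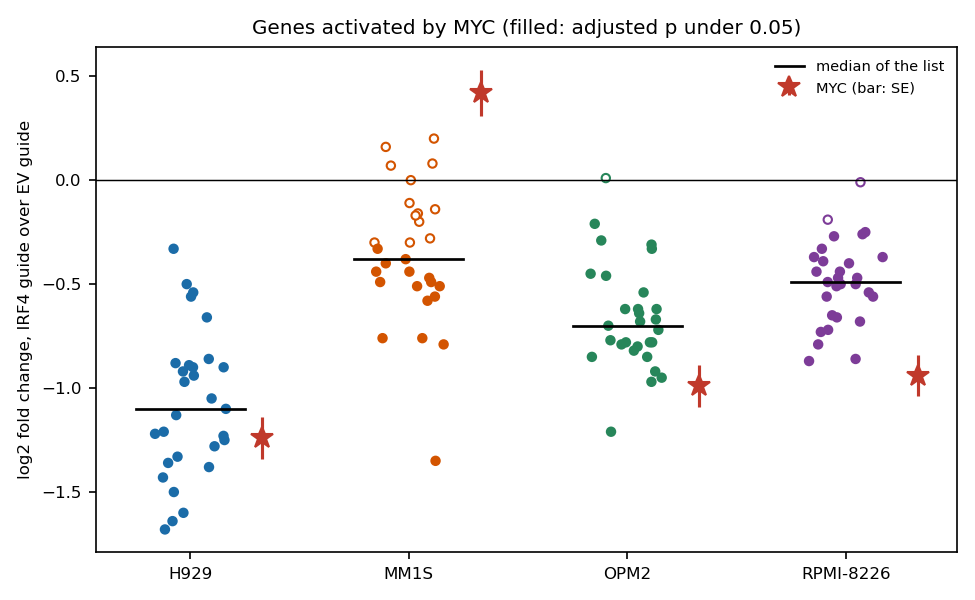
Log2 fold change of the IRF4 guide over EV (y axis) for the 29 tested genes activated by MYC in each line, filled where the adjusted p was under 0.05, with the list's median as a line and MYC with its SE as a star. The medians are -1.10 for H929, -0.70 for OPM2, -0.49 for RPMI-8226 and -0.38 for MM1S, where MYC is at 0.42.

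Of 8 genes that MYC represses, 3 were higher and 1 lower on the average of the lines (median 0.58, beside 0.11 for all genes, of which 32.6% were higher and 25.1% lower). CDKN1A (p21), an inhibitor of cyclin-dependent kinases, was higher in H929 (359.6 against 155 CPM, 1.21 ± 0.22), MM1S (67.6 against 16.2, 2.05 ± 0.31) and OPM2 (31.7 against 17.8, 0.79 ± 0.24), and lower in RPMI-8226 (18 against 29.2, -0.71 ± 0.24). CDKN1B (p27) was higher in H929 (1.10 ± 0.09), OPM2 (0.39 ± 0.09) and RPMI-8226 (0.23 ± 0.09). CDKN1C was higher in OPM2 (0.80 ± 0.23) and RPMI-8226 (1.17 ± 0.19), and NDRG1 lower in OPM2 (-1.04 ± 0.27) and RPMI-8226 (-0.71 ± 0.25).

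Targets of the MLX branch moved both ways, 5 higher and 4 lower of 10 tested on average (median 0.08), beside 32.6% and 25.1% of all genes. TXNIP, the arrestin-like gene most responsive to MondoA and MLX, rose in each line: to 644 CPM with the IRF4 guide against 159 with EV in H929 (2.02 ± 0.18), 471 against 236 in RPMI-8226 (1.00 ± 0.18), 605 against 304 in MM1S (0.99 ± 0.20) and 276 against 139.7 in OPM2 (0.98 ± 0.18). ACACA, FASN and SCD, enzymes of fatty acid synthesis and desaturation, fell in each line, by 0.68, 0.73 and 1.15 on average on the log2 scale. ELOVL6, a fatty acid elongase named here after its values were seen, was higher in H929 (0.43 ± 0.12) and was not called in the other lines.

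Partners of the network were read against the 32.6% of all genes called higher and 25.1% called lower on the average of the lines. Of 20 cofactors of MYC, 6 were higher and 7 lower (median -0.01), of 15 SIN3 and histone deacetylase corepressors, through which the MXD proteins act, 4 were higher and 6 lower (median -0.04), and of 16 genes of MYC protein turnover 4 were higher and 6 lower (median -0.03). These counts carry no test and nothing is read from them about the lists. The genes named next are described singly. The chromatin remodelling subunits RUVBL1, RUVBL2 and ACTL6A fell on average (-0.64 ± 0.04, -0.61 ± 0.05 and -0.64 ± 0.04). RUVBL1 was not called in MM1S (-0.11 ± 0.10), nor ACTL6A in RPMI-8226 (-0.20 ± 0.08). The acetyltransferase gene CREBBP rose in each line (0.50 ± 0.03 on average). Among the corepressors, SIN3B rose in each line (0.58 ± 0.05 on average), at 88.6 CPM with the IRF4 guide against 47.2 with EV in H929. HDAC2 (-0.50 ± 0.03), RBBP7 (-0.39 ± 0.04) and RBBP4 (-0.32 ± 0.04) fell on average. RBBP7 (-0.06 ± 0.07) and RBBP4 (-0.16 ± 0.07) were not called in RPMI-8226. In MYC protein turnover, SKP2, a ubiquitin ligase subunit that targets MYC and p27, was lower in each line, at 20.9 CPM with the IRF4 guide against 73.9 with EV in H929 (-1.82 ± 0.11) and 45.0 against 55.4 in RPMI-8226 (-0.30 ± 0.10). CIP2A (-0.77 ± 0.05) and SET (-0.51 ± 0.04), which restrain the phosphatase PP2A, and the deubiquitinase gene USP37 (-0.61 ± 0.06) fell on average. CIP2A was not called in RPMI-8226 (-0.20 ± 0.09). USP37 was called in H929 (-1.20 ± 0.11) and MM1S (-0.96 ± 0.12) but not in OPM2 (-0.23 ± 0.11) or RPMI-8226 (-0.08 ± 0.11).

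Of 10 other subunits of the MGA complex (PRC1.6), 7 were lower and 2 higher on average (median -0.24, beside 0.11 for all genes, of which 25.1% were lower and 32.6% higher). The lines were not alike. In RPMI-8226 2 were lower and 1 higher (median -0.03, beside 0.04 for all genes, of which 14.7% were lower and 19.2% higher). On average E2F6, a repressor of the E2F family, fell by 0.52 ± 0.07, TFDP1 by 0.33 ± 0.04 and CBX3 by 0.26 ± 0.04, while TFDP2 rose by 0.55 ± 0.05. E2F6 (-0.32 ± 0.16) and TFDP2 (0.27 ± 0.12) were not called in MM1S, nor TFDP1 in RPMI-8226 (-0.10 ± 0.07). CBX3 averaged 450.2 CPM with the IRF4 guide and 459 with EV in RPMI-8226. Germline genes that this complex silences were mostly near 0 counts: 9 of 16 were tested, 2 were called higher and 0 lower on average in edgeR, beside the same shares (1 lower at an unadjusted p under 0.05, 1 in DESeq2 and 2 in limma). STAG3, a meiotic cohesin subunit, averaged at most 1.22 CPM in any group, at 0.758 CPM with the IRF4 guide against 0.225 with EV in H929, and ZCWPW1, a histone reader of meiosis, was called in OPM2 and RPMI-8226.

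MYC (Entrez 4609) lies on chromosome 8 at 127735434 to 127742951 on GRCh38, by RefSeq positions, on the plus strand by GENCODE v29. Of 10 genes of its region, 8 were tested, and 3 were higher and 3 lower on average, beside 32.6% and 25.1% of all genes. LRATD2 fell in H929 (-1.94 ± 0.18) and OPM2 (-0.87 ± 0.13) but was not called in MM1S (-0.19 ± 0.14) or RPMI-8226 (0.44 ± 0.25). TRIB1, a pseudokinase gene, was lower in each line (-0.40 ± 0.05 on average) and ASAP1 higher in each (0.49 ± 0.05). GSDMC, a gasdermin gene, was higher in MM1S (7.20 against 2.16 CPM) and RPMI-8226 (1.98 against 0.264 CPM), and at least 5.2-fold higher in H929, with 15 counts over the IRF4 libraries and 0 over the EV libraries (a floor of 3 counts over the group). The other members lie on chromosomes 2 (MXD1), 4 (MXD4), 5 (MXD3), 10 (MXI1), 12 (MLXIP), 14 (MAX), 15 (MGA) and 17 (MNT and MLX).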

How the data were processed

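The authors deposited 1 table of raw counts by Entrez gene, covering the 23 libraries, and log2 RPKM values per library for 16220 genes, which appear to be normalised between libraries by a method not given in the sources used here. Subread, featureCounts and limma on GRCh38 (hg38) are named per the submitters' processing notes, without versions, and libraries came from a TruSeq RNA kit, per the labels' protocols. Genes without a symbol (490) took 0.11 to 0.2923% of a library's counts and stayed in the fit.

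Counts were fitted in R 4.3.3 with edgeR 4.0.16 (filterByExpr by group, TMM, robust quasi-likelihood) in a design of 8 group means over 23 libraries. Contrasts were the guide effect in each line, their average, the difference between lines and between EV groups (F tests with 3 degrees of freedom), and MM1S against the mean of the others. The fit was tested on simulated data. In OPM2 the 3 same-numbered pairs of libraries deviated together from their group means (r of 0.144 to 0.183, each over 0.1), so the replicate numbers were taken as pairs there from the data, with no shared batch or day in the labels. The main fit did not use these pairs, so its OPM2 values are unpaired. The block within each line did use them. DESeq2 1.42.0, limma 3.58.1 on the log2 RPKM values, other scalings, no filter, each line alone, a replicate block and leaving out each library were alternatives. The precision of a value is its SE, or the standard deviation (SD) over libraries, and the counting interval covers counting error only.

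Promoters and gene positions came from RefSeq tables, and strands, exon lengths and exon overlaps from GENCODE v29. Members and lists were chosen with earlier results of these data known, so no list count is independent support. Named genes were all members, IRF4, up to 4 called genes per list with the smallest adjusted p on the average and every tested gene of the list of 3 MYC relatives, and the 5 genes closest to MYC.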

Additional observations from a re-analysis of the deposited data

Results flagged for a closer look

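The guide effect differed between the 4 lines for 9 members, by edgeR's quasi-likelihood F test with 3 degrees of freedom, which 48% of all genes did. The adjusted p was 2.85e-09 for MYC (lower in 3 lines and higher in MM1S), 7.12e-06 for MXD4 and 9.78e-04 for MXD1 (both higher in all 4 lines by different amounts). It was 7.46e-04 for MAX (lower in OPM2), 7.53e-04 for MLX (lower in H929 and OPM2), 0.00421 for MXD3 (higher in H929 and RPMI-8226) and 0.00467 for MLXIP (lower in OPM2, higher in RPMI-8226). It was 0.0144 for MXI1 (higher in H929 and MM1S) and 0.0302 for MNT (higher in MM1S). The MNT difference was lost in 10 of 30 alternatives that of MXI1 in 1, without RPMI-8226 IRF4 replicate 2 (adjusted p = 0.0514), and that of MLXIP in 1, limma on log2 RPKM (adjusted p = 0.0559).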

How the results depend on the processing

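Of 32 member calls in the lines and on the average, 21 held in every alternative run, among them those of MXD4 and MXD1 in each line and of MYC in H929, OPM2, RPMI-8226 and on the average. Same-numbered libraries of the 2 guides deviated from their group means with r of 0.0256 to 0.161 outside OPM2, all positive but not all over 0.1 in any of those lines. They were not taken as pairs there, but a cut at 0.1 cannot show that they are unpaired. Under a replicate block common to the lines, 5 members differed in MM1S from the other lines, and 4 with the block within each line, against 2 without it. The MGA difference between lines was called with either block (adjusted p = 0.0167 shared, 0.0343 within lines), as was MXI1 in OPM2 (0.00564 and 4.15e-06). Leaving out 1 library gave 1 to 3 there, the lowest without MM1S EV replicate 2. It gave 3 to 5 members higher in MM1S (lowest without EV replicate 3), and 2 to 5 lower in OPM2 (lowest without IRF4 replicate 1), with 2 also in limma on log2 RPKM. The cause was not tested. Values near 0 that changed sign were all uncalled. Fitted alone, lines gave -0.06 for MAX in H929, -0.02 for MLXIP in H929 and in MM1S, and -0.04 for MGA in MM1S. MGA in MM1S was also 0.00 with RLE size factors and DESeq2 and -0.03 with the block within each line. The MLXIP difference of MM1S was 0.00 with upper-quartile scaling and -0.03 in limma. Leaving out 1 library gave -0.05 to 0.04 for MAX and -0.11 to 0.13 for MLXIP in H929, and in MM1S -0.07 to 0.07 for MXD3, -0.06 to 0.00 for MLX, 0.00 to 0.08 for MLXIP and -0.06 to 0.12 for MGA. It gave -0.16 to 0.04 for MXD3 in OPM2, -0.18 to 0.05 for MGA in RPMI-8226, -0.04 to 0.02 for MLXIP on the average and -0.01 to 0.08 for its MM1S difference. Chosen after seeing the data, exon lengths of GENCODE in place of RPKM gave IRF4 over EV folds of the MYC to antagonist ratio of 0.195, 0.665, 0.292 and 0.456 in H929, MM1S, OPM2 and RPMI-8226. Levels from the deposited counts and gene lengths were not run, as no lengths were found in the files used here.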
